A study of Mus musculus with 12 samples.

Results

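The baseline transcriptome of RAW264.7 cells was described from the 3 libraries of the group that received control vesicles (ctrl-EVs), which are 3 of the 12 libraries of the series. RAW264.7 is a macrophage-like line that was established from a tumour raised in a male BALB/c mouse with Abelson murine leukaemia virus. The cells had been cultured in medium with vesicle-depleted serum and exposed for 48 h to extracellular vesicles (EVs) at 3 µg of vesicle protein per ml. The EVs came from MS-1, a mouse endothelial line, and had been electroporated with cel-miR-67, a worm miRNA that serves as a control mimic. The libraries were chosen by the group given in their titles, and the other 9, whose EVs carried mimics of other miRNAs, were not used. All 3 libraries therefore share the vesicles, the electroporation and the control mimic, and their effect cannot be told apart from the state of the line. Whether the 3 replicates came from separate cultures is not stated, so the SDs given here may be partly technical.

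Macrophages are phagocytes that engulf microbes, debris and dying cells and break them down in lysosomes. Their identity rests on the transcription factor PU.1 (gene Spi1) and on signals through the receptor of colony-stimulating factor 1 (Csf1r). They sense microbes through Toll-like receptors and antibodies through Fc receptors, and they answer with chemokines and cytokines that call in and steer other immune cells. RAW264.7 cells are widely used to study these responses and the formation of osteoclasts. Levels are given as TPM, the number of transcripts of a gene for each 1000000 transcripts of the library, corrected for transcript length and summed over the transcripts of the gene. Values for the 3 libraries stand in the order of replicates 1, 2 and 3, and means carry the SD over the 3 libraries (n = 3). A gene counted as expressed at 1 TPM or more in each library, and as at the floor with at most 3 estimated counts in each.

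The libraries held 19568719, 17181572 and 20468259 estimated counts, and 3 counts, the smallest signal taken as detectable, were 0.153, 0.175 and 0.147 for each 1000000 counts. Of 21899 protein-coding genes, 10648 (48.6%) were expressed, 6857 (31.3%) were at the floor and 4595 of the latter were listed at 0 in each library. Levels of 100 TPM or more in each library were reached by 975 protein-coding genes, and 1000 TPM by 104. The 10 most abundant genes held 12.5%, 12.5% and 10.6% of all TPM, and the 100 most abundant held 39.1%, 42.6% and 39.5%. A further set of 405 genes was picked by symbol for complexes that every cell needs, such as ribosomes, proteasomes and respiratory complexes. Of these, 394 (97.3%) were expressed and 8 were at the floor. The symbols also take in alternative forms of subunits, which need not be used by every cell. Among the 8 these were Cox4i2, Cox8b, Cox8c, Cox7b2, Cox6b2 and Eif5a2. In bulk RNA, fewer cells that express a gene and less RNA per cell cannot be told apart.

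The 20 genes with the highest mean TPM mostly served protein synthesis and respiration. Of these, 6 lie on the mitochondrial genome, 7 encode ribosomal proteins under their usual symbols, and 3 more are near-identical copies of ribosomal protein genes (Rps27rt, Gm10260 and Rps12-ps3). The others included Eef1a1, the elongation factor that brings tRNAs to the ribosome, at 12508, 12945 and 11598 TPM, Tpt1 at 4285, 5553 and 4853 TPM, and a pseudogene. The highest value was that of mt-Atp8, a subunit of ATP synthase, at 32761, 29522 and 23720.5 TPM. The effective length of its transcript, by which counts are divided, is very short, so its TPM is imprecise and was not read as the top of the order. mt-Co1, the catalytic subunit of cytochrome oxidase, was at 15500.4, 21259.5 and 11314 TPM. Gm29216, a chromosome 1 pseudogene, carries 29.6% of the 31-base words of mt-Co1 and was itself at 4778, 8209.9 and 7216 TPM, so how reads were divided between them is uncertain. Genes of the mitochondrial genome held 11.3%, 10.5% and 9.08% of TPM, and 84 cytosolic ribosomal protein genes held 17.0%, 18.9% and 18.7%. The mitochondrial share leaves out chromosome 1 pseudogenes and depends on how reads were divided. Gm28661, with 99.5% of the 31-base words of mt-Co2, was at 1660, 5560 and 3328 TPM. Gm28438, with 98.1% of those of mt-Nd3, was at 1332, 1021 and 1298 TPM.

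The label of the cells as macrophages was checked with 4 markers. All 4 were expressed in every library, as were 48.6% of all protein-coding genes. Cd68, a heavily glycosylated protein of macrophage lysosomes (chr11:69664213-69666153, minus strand, GRCm38), was at 374, 349 and 340.2 TPM (354 ± 17.3 TPM). Lyz2, the lysozyme of macrophages (chr10:117277331-117282321, minus strand), was at 157, 139.5 and 196 TPM (164 ± 28.8 TPM). Spi1 (chr2:91082390-91115756, plus strand), which encodes PU.1, was at 97.6, 56.0 and 131 TPM (95.0 ± 37.8 TPM). Csf1r, the receptor that keeps macrophages alive and dividing, was at 58.4, 24.2 and 46.3 TPM (43.0 ± 17.4 TPM). The ranges of Cd68, Lyz2 and Spi1 did not overlap, in that order from high to low. Spi1 and Csf1r overlapped in range, though Spi1 was higher within each of the 3 libraries. On average 49.2% of the Spi1 level sat on a 544-nt transcript. The order and rank of Spi1 therefore depend on how reads were divided between its transcripts. Among nuclear protein-coding genes the 4 markers ranked 241, 628, 1320 and 3352 by mean TPM. Replicate 2 gave the lowest value of Lyz2, Spi1 and Csf1r, and for Spi1 and Csf1r the highest library was over 2 times replicate 2.

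Lyz2 has a neighbour on chromosome 10, Lyz1 (chr10:117287797-117292868, minus strand), the lysozyme known from Paneth cells of the gut. Lyz1 was listed at 2.01, 3.01 and 1.004 estimated counts, against 2559, 2097 and 3460.0 for Lyz2. The transcripts of the pair share 32.8% of the 31-base words of Lyz2, so reads from the shared stretches were divided by estimate, and part of either value is uncertain. The stretches upstream of their start sites are printed because they are alike while the levels are not. Both come from RefSeq windows of the 250 bases before the RefSeq start on the minus strand of GRCm38.p6 and are written 5′ to 3′. The last 49 bases of the Lyz2 window lie inside the gene as GENCODE draws it and were left out, as were their identical partners in Lyz1, which leaves 201 bases each at chr10:117282322-117282522 and chr10:117292918-117293118. Capitals mark bases that differ from, or have no partner in, the other sequence:
Lyz2: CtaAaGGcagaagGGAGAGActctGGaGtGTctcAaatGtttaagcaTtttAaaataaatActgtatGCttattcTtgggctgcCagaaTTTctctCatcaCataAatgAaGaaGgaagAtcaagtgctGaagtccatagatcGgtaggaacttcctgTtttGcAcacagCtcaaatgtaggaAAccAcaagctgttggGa
Lyz1: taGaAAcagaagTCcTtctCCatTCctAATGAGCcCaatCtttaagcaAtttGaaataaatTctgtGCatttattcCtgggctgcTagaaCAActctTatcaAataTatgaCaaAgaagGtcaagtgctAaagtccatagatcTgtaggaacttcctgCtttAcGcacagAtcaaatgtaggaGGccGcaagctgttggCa
Of 240 aligned bases of the whole windows 205 (85.4%) were identical, and the last 50 bases before the start were identical without a break.

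The window upstream of Cd68, the most abundant of the 4 markers, is given with the word GAGGAA in capitals, a common form of the core that PU.1 binds. It is the 250 bases before the RefSeq start at chr11:69666171-69666420 on the minus strand:
Cd68: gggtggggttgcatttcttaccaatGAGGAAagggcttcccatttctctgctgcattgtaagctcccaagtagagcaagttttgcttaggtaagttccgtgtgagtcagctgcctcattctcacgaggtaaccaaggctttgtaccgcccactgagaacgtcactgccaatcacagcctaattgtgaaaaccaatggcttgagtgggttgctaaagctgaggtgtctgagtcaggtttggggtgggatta
The word starts 225 bases before that start. Neither whole lysozyme window holds it on either strand. Its last 4 letters, GGAA, do stand in both printed lysozyme sequences, in the shared stretch gtaggaacttcctg. This shorter word was not counted over the windows. On either strand, GAGGAA was found in 6252 of 27025 such RefSeq windows (23.1%). It was in 14 of the 34 windows (41.2%) that could be matched to the macrophage identity list described next. These are matches of letters and not binding sites.

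Of 49 genes listed for macrophage identity 33 (67.3%, against 48.6% of all protein-coding genes) were expressed and 6 were at the floor. Of 12 surface proteins 11 were expressed. The tetraspanin Cd53 was at 316, 165 and 312 TPM. Ptprc, the CD45 phosphatase of all white blood cells, was at 239, 201 and 206 TPM. Sirpa, the receptor of the CD47 "do not eat me" signal, was at 117, 49.7 and 160.2 TPM. Replicate 2 was clearly below both others for Cd53 and Sirpa, while the 3 libraries lay close together for Ptprc. Cd14, which hands bacterial lipopolysaccharide to its receptor, was at 103, 49.0 and 150.4 TPM, again lowest in replicate 2. Lower levels were seen for Itgam, the alpha chain of complement receptor 3 (CD11b), at 21.5, 19.9 and 18.1 TPM. Adgre1, the F4/80 antigen of mature mouse macrophages, was lower still at 7.47, 6.22 and 3.33 TPM, and its range did not overlap with that of Itgam. Adgre4, a relative of F4/80, was near the floor with 3 to 6 estimated counts.

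The secreted and granule genes held the highest levels of the list. Cst3, the protease inhibitor cystatin C, was at 508, 456 and 505 TPM. Gpnmb, a glycoprotein of lysosomes and melanosomes, was at 334, 239 and 537 TPM, with replicate 3 the highest. The phagocyte NADPH oxidase, which makes the superoxide that kills microbes, was unevenly represented. Cyba, its small membrane subunit, was at 414, 331 and 703 TPM. Its cytosolic subunits Ncf1 and Ncf4 ranged from 58.9 to 192 TPM over the libraries. Cybb, the catalytic subunit that pairs with Cyba, was at 7.14, 5.20 and 5.22 TPM, far below Cyba, Ncf1 and Ncf4 in each library. Of complement C1q, which tissue macrophages make, C1qa and C1qb were listed at 0 in each library and C1qc had 1 count in 1 library.

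Of 19 myeloid transcription factors 8 (42.1%, against 48.6% of all protein-coding genes) were expressed. Irf5, which drives inflammatory genes downstream of Toll-like receptors, was at 103, 73.2 and 94.5 TPM. Bhlhe40 was at 55.2, 101 and 47.7 TPM, and its range overlapped with that of Irf5. Its relative Bhlhe41 had the widest spread of the identity list at 6.51, 29.3 and 4.31 TPM. For both of these related factors replicate 2 was the highest library, whereas for Spi1 and Irf5 it was the lowest. Cebpa, the factor that opens the myeloid programme (chr7:35119293-35121928, plus strand), was listed at 0 in each library, and at its length 3 counts would have been 0.0865 to 0.101 TPM. Gata6, Spic and Pparg, which mark resident macrophages of the peritoneum, spleen and lung, had at most 12 counts in any library.

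**Figure D1:**
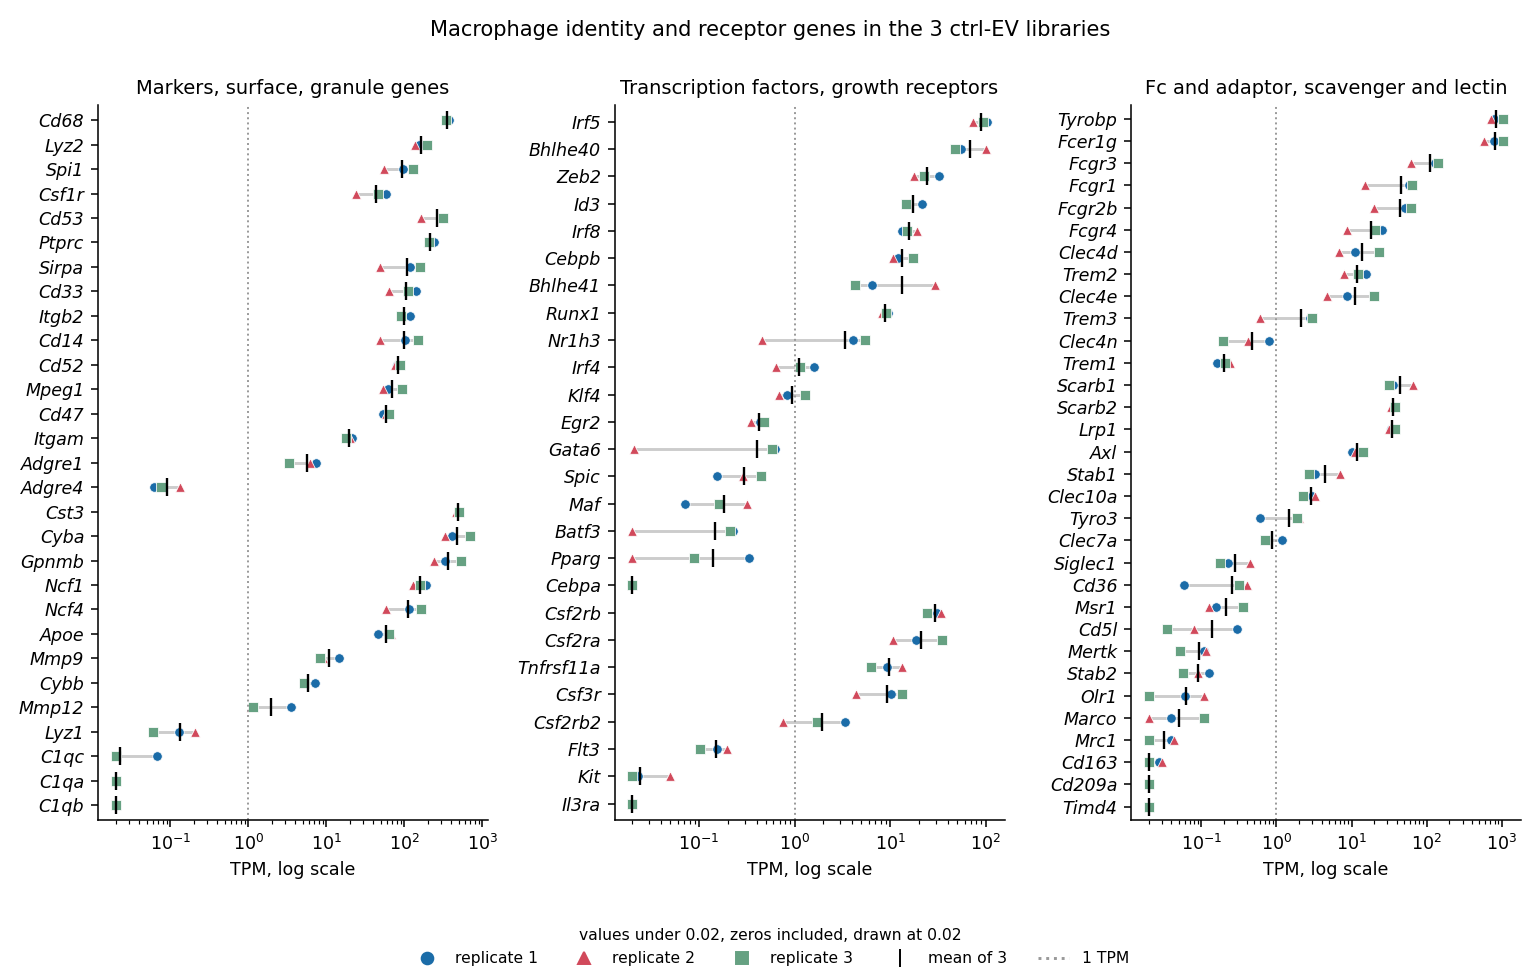
TPM on a log scale for genes of macrophage identity, growth factor receptors, Fc receptors and adaptors, and scavenger receptors and lectins in the 3 ctrl-EV libraries, with replicates as symbols, their mean as a bar and the range as a line. Values under 0.02 are drawn at 0.02. The 4 markers and the Fc adaptors sit far to the right of the 1 TPM line, and Cebpa, C1qa, C1qb, Cd209a and Timd4 lie at the left edge.

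Of 102 lineage and immune receptors 65 (63.7%, against 48.6% of all protein-coding genes) were expressed and 13 (12.7%, against 31.3%) were at the floor. The highest were not receptors themselves but their signalling adaptors. Tyrobp, the adaptor DAP12 that serves TREM receptors, was at 788, 716 and 1037 TPM (847 ± 168 TPM). Fcer1g, the gamma chain shared by Fc receptors, was at 785, 588 and 1048 TPM (807 ± 231 TPM). The ranges of these adaptors overlapped, and both were above every receptor of the list in each library. Of the IgG receptors, Fcgr3 was at 129, 61.5 and 141 TPM. The high-affinity Fcgr1 was at 57.5, 15.1 and 63.0 TPM. The inhibitory Fcgr2b was at 52.0, 19.96 and 62.1 TPM. All 3 were lowest in replicate 2, by over 2 times against both others. Of 12 genes of the Fc and adaptor group 9 were expressed, and replicate 2 was the lowest library in all 9 and over 2 times below both others in 4, against 53.2% and 4.61% of all protein-coding genes with a mean of at least 10 TPM. Trem2, a lipid sensor of phagocytes, was expressed at 7.91 to 15.7 TPM, while Trem1 had at most 9 counts.

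Of 8 further growth factor receptors 4 (50%, against 48.6% of all protein-coding genes) were expressed. Csf2rb, the common beta chain for GM-CSF, IL-3 and IL-5, was at 31.2, 33.8 and 24.3 TPM. It shares 18.8% of its 31-base words with Csf2rb2, which was at 3.36, 0.761 and 1.72 TPM, so the split between both is uncertain. Tnfrsf11a, the receptor RANK through which the line can be driven to osteoclasts, was at 9.23, 13.3 and 6.34 TPM. Csf3r, the receptor of granulocytes, was at 10.3, 4.43 and 13.1 TPM. The ranges of RANK and Csf3r overlapped, with replicate 2 the highest for the former and the lowest for the latter. Flt3 and Kit, receptors of early blood progenitors, had at most 10 and 2 counts, and Il3ra was listed at 0.

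Of 20 scavenger receptors and lectins 6 (30%, against 48.6% of all protein-coding genes) were expressed, the smallest share of the receptor groups. Scarb1, a receptor of high-density lipoprotein, was at 35.5, 65.7 and 31.6 TPM. Scarb2, a lysosomal membrane protein of the same family, was at 36.9, 33.3 and 37.6 TPM. Lrp1, a large endocytic receptor, was at 33.0, 31.3 and 38.1 TPM. These 3 overlapped in range, and replicate 2 stood out for Scarb1 only. Axl, a receptor for dying cells, was at 10.2, 11.04 and 14.3 TPM, whereas its relative Mertk had 3.10 to 6 counts. Receptors by which tissue macrophages are often recognised were at or close to the floor. The mannose receptor Mrc1 had 3, 3 and 1 estimated counts. The haemoglobin scavenger Cd163 had 1.02, 1.05 and 0. The scavenger receptor Msr1 had 6, 4 and 11. Cd209a and Timd4 were listed at 0 in each library, and none of these receptors reached 1 TPM in any library.

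Of 21 pattern recognition receptors 17 (81.0%, against 48.6% of all protein-coding genes) were expressed. Sting1, the sensor of cyclic dinucleotides, was at 103, 26.7 and 101 TPM. Tlr2, which binds bacterial lipopeptides, was at 55.6, 43.8 and 64.0 TPM. Tlr7, a sensor of single-stranded RNA, was at 47.1, 15.8 and 42.1 TPM. Sting1 and Tlr7 were over 2 times lower in replicate 2 than in both others, and Tlr2 was not. Tlr4, the lipopolysaccharide receptor, was at 35.1, 19.9 and 26.4 TPM. Its partner Ly96 was at 25.1, 17.1 and 26.2 TPM, overlapping with Tlr4 in range. Tlr3 and Tlr9, sensors of double-stranded RNA and of CpG DNA, were lower, with means of 2.52 and 2.33 TPM. Tlr5, the flagellin receptor, reached 1 TPM in 1 library, Tlr8 had 1 count in 1 library, and Tlr11 and Tlr12 were listed at 0.

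Of 22 cytokine receptors 19 (86.4%, against 48.6% of all protein-coding genes) were expressed, the largest share of the receptor groups. Ifnar2, a chain of the type I interferon receptor, was at 75.7, 70.8 and 94.8 TPM. Il2rg, the common gamma chain, was at 46.2, 27.5 and 80.0 TPM. Il10rb, the shared chain of the IL-10 receptor, was at 52.1, 26.1 and 67.3 TPM. Its specific partner Il10ra was at 8.94, 11.8 and 8.39 TPM, below Il10rb in every library. Both chains of the interferon gamma receptor and both chains of the TGF-beta receptor were expressed, between 17.1 and 32.5 TPM. Il18rap, an accessory chain of the IL-18 receptor, was at 64.1, 39.9 and 36.9 TPM. Il18r1, the chain that binds the ligand, was at 0.638, 0.416 and 0.444 TPM, under 1 TPM in each library. Of Il4ra, through which IL-4 and IL-13 act, 57.3% of the level on average sat on 1 transcript annotated as a target of nonsense-mediated decay, and its mean was 10.9 TPM.

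Of 19 chemokine and other G protein-coupled receptors 10 (52.6%, against 48.6% of all protein-coding genes) were expressed. S1pr1, a sphingosine receptor that guides cells out of tissue, led at 111, 95.7 and 118 TPM. Cxcr4, the receptor of Cxcl12, was at 10.6, 6.53 and 8.08 TPM. Ccr2, the receptor of Ccl2, was at 1.71, 1.57 and 1.63 TPM, which was steady but low. Cx3cr1, a receptor of patrolling monocytes and microglia, was at 0.651, 1.17 and 0.920 TPM. The formyl peptide receptors Fpr1 and Fpr2 were listed at 0, and 37.6% of the 31-base words of Fpr2 are also in a pseudogene listed at 0.

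**Figure D2:**
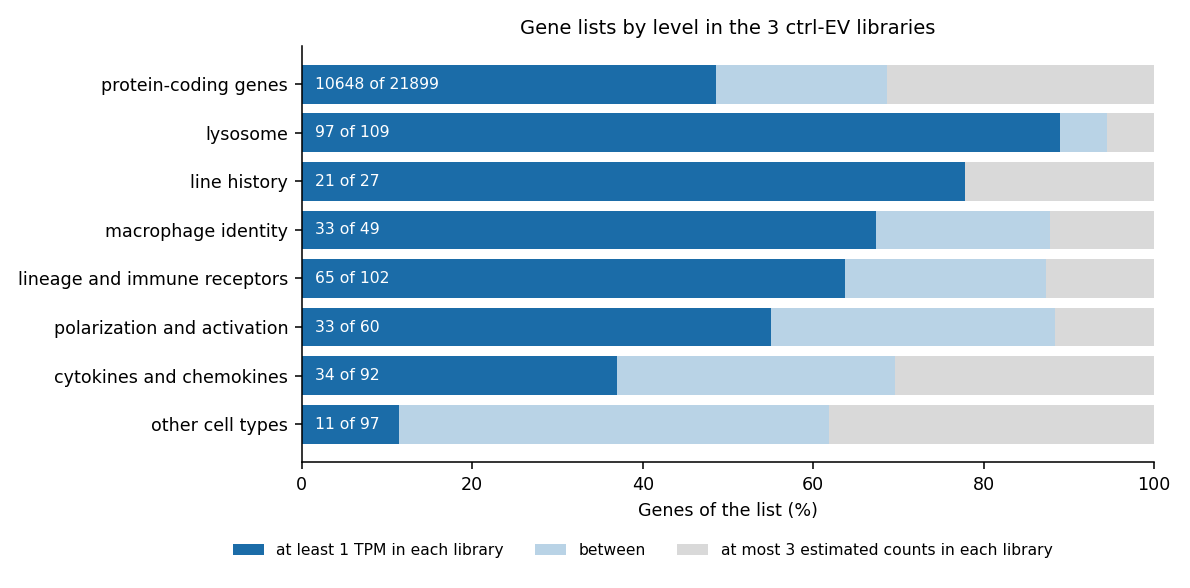
Share of each gene list, in percent of its genes, at 3 levels in the 3 ctrl-EV libraries: at least 1 TPM in each, at most 3 estimated counts in each, and between. The expressed share was 97 of 109 for lysosome genes and 11 of 97 for markers of other cell types, with 10648 of 21899 protein-coding genes above them.

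Of the 7 lists, that of the lysosome had the highest expressed share, with 97 of 109 genes (89.0%, against 48.6% of all protein-coding genes) expressed and 6 at the floor. Lysosomes are acid compartments in which hydrolases cut proteins, sugars and lipids. The list held 14852, 14287 and 16602 TPM in sum. Of 18 proteases 16 were expressed. The aspartic protease Ctsd was at 1359, 1239.5 and 1813 TPM (1471 ± 303 TPM). Ctsa, the protective protein that stabilises sugar hydrolases, was at 1382, 1652 and 1232 TPM (1422 ± 213 TPM). Their ranges overlapped, and both were above the cysteine protease Ctsb in each library. Ctsb was at 615, 624 and 723 TPM, and on average 55.1% of it sat on an 801-nt transcript annotated as a retained intron. Lgmn, the asparagine-specific protease legumain, was at 333, 433 and 338 TPM. Ctsk, the collagen-cutting cathepsin of osteoclasts, was not expressed and had 9, 11 and 3 counts.

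Of 33 hydrolases of sugars and lipids 32 were expressed. Hexa, a subunit of beta-hexosaminidase, was at 325, 397 and 453 TPM. Lipa, the acid lipase, was at 231, 226 and 175 TPM. Gusb, beta-glucuronidase, was at 187, 135 and 221 TPM. Lipa and Gusb overlapped in range and were below Hexa in each library. Acp5, the tartrate-resistant phosphatase used to mark osteoclasts, was the member that was not expressed, at 14, 6 and 7 counts. All 8 activators and carriers were expressed. Grn, the precursor of granulins, was at 888, 615 and 1128 TPM. Psap, the precursor of saposins, was at 681, 867 and 1009 TPM. Gm2a, the activator protein of hexosaminidase, was at 26.2, 60.2 and 22.0 TPM, over 2 times higher in replicate 2 than in both others, which was not so for Grn or Psap.

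Of 21 lysosomal membrane proteins 19 (90.5%, against 48.6% of all protein-coding genes) were expressed. Lamp1, the main glycoprotein of the membrane, was at 983, 1267 and 1033 TPM (1094 ± 152 TPM). Its relative Lamp2 was at 151, 131 and 173 TPM, several times lower. Laptm5, a lysosomal protein of blood cells, was at 732, 686 and 824 TPM. Against these, Cd63, a tetraspanin of lysosomes and exosomes (chr10:128900989-128912822, plus strand), had 0, 3.23 and 2.01 estimated counts. A pseudogene copy, Cd63-ps, shares 13.4% of its 31-base words and was listed at 0. Transcripts that the annotation did not hold are in no gene, and whether some come from Cd63 was not looked up. Mcoln1, a calcium channel, was among the steadiest members at 67.2, 65.5 and 66.1 TPM. Slc11a1, a metal transporter of macrophages, was lower and more spread at 9.51, 7.20 and 18.9 TPM. Its leading transcript, with 31.6% of its level on average, is 378 nt long and annotated as processed and noncoding.

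The proton pump (V-ATPase) acidifies the lysosome and is built of a V1 part that splits ATP and a membrane part, V0. Of 25 subunit genes 19 (76%, against 48.6% of all protein-coding genes) were expressed. Atp6v0c, of the ring that carries the protons, was at 339.8, 181 and 411 TPM. It shares 11.9% of its 31-base words with the pseudogene Atp6v0c-ps2, which was listed at 286, 145 and 370.4 TPM, so its value is uncertain. Atp6v1g1 was at 285, 221 and 369 TPM. Of the a subunits, which steer the pump to membranes, Tcirg1, the form of osteoclasts and phagocytes, was at 153, 138 and 152 TPM. Atp6v0a1 and Atp6v0a2 ranged from 16.5 to 35.1 TPM, and the kidney form Atp6v0a4 was listed at 0. Atp6v1b2 was at 108, 65.1 and 111 TPM, while Atp6v1b1, known from kidney, had 1 count in 1 library. Atp6v0d1 was at 143, 95.0 and 203 TPM, while Atp6v0d2, known from osteoclasts, was at 0.484, 0.411 and 0.360 TPM. Replicate 2 was the lowest library for 15 of the 18 subunit genes with a mean of at least 10 TPM, against 53.2% of all protein-coding genes at that level.

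Of 4 factors that turn on lysosome genes 3 (75%, against 48.6% of all protein-coding genes) were expressed. Tfe3 was at 41.9, 48.4 and 41.6 TPM. Tfeb, often named as the master factor of lysosomes, was at 13.7, 17.9 and 22.2 TPM. Mitf was at 15.5, 12.5 and 11.1 TPM. Tfe3 was above both in each library, Tfeb and Mitf overlapped, and Tfec was listed at 0.

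**Figure D3:**
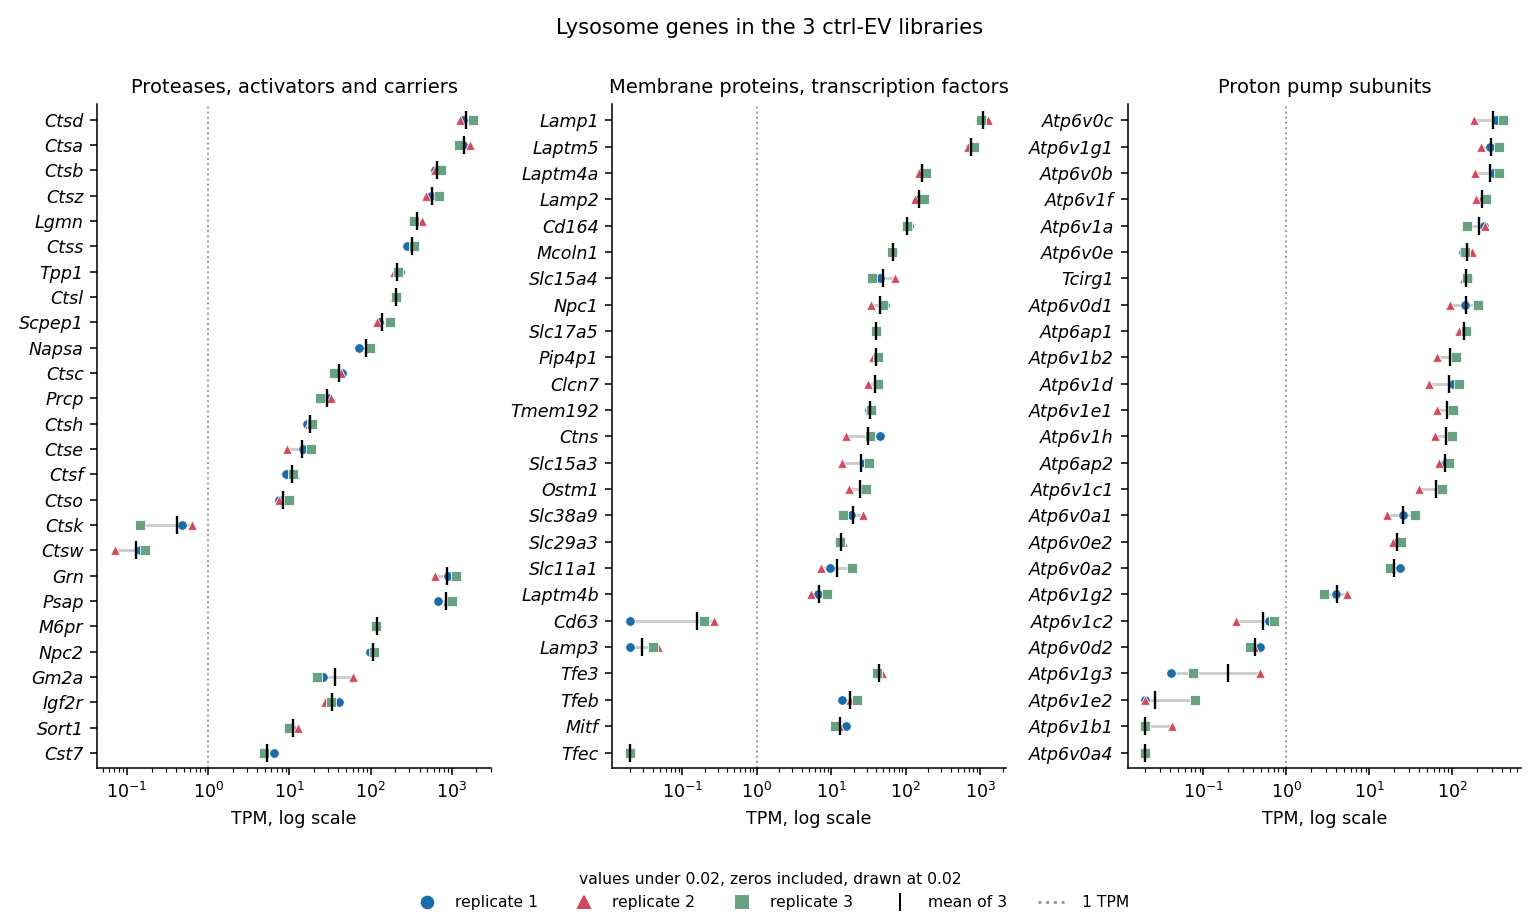
TPM on a log scale for lysosomal proteases, activators and carriers, membrane proteins, transcription factors and proton pump subunits in the 3 ctrl-EV libraries, with replicates as symbols, their mean as a bar and the range as a line. Values under 0.02 are drawn at 0.02. Most genes sit between 10 and 1000 TPM with narrow ranges, and Cd63, Lamp3, Tfec and the pump isoforms from Atp6v1c2 downwards lie to the left of the 1 TPM line.

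Of 92 cytokine and chemokine genes 34 (37.0%, against 48.6% of all protein-coding genes) were expressed, and 28 (30.4%, against 31.3%) were at the floor. Their sum was 3123, 2530.2 and 2635 TPM, and the growth factors and related proteins held its highest members. Spp1, osteopontin, an adhesive protein secreted by macrophages, was at 1064, 823 and 547 TPM (811 ± 259 TPM). Mif, macrophage migration inhibitory factor, was at 744, 681 and 741 TPM (722 ± 35.5 TPM). Both overlapped in range, and Mif was much steadier. Vegfa, the growth factor of blood vessels, was at 101, 256 and 97.2 TPM, with replicate 2 over 2 times above both others. The leading transcript of Vegfa, with 28.9% of its level on average, is annotated as a retained intron. Tgfb1, a suppressor of inflammation that the study followed as a marker, was at 35.9, 24.2 and 38.1 TPM (32.8 ± 7.45 TPM). Csf1, the ligand of Csf1r, was expressed at 5.02, 3.77 and 9.48 TPM. Igf1, which many tissue macrophages make, had at most 3.37 counts, and Areg and Vegfc were listed at 0.

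Chemokines were led by Ccl3 (MIP-1 alpha), a ligand of Ccr1, at 425, 244 and 429 TPM (366 ± 106 TPM). Ccl9 was at 141, 65.7 and 84.1 TPM, of which 62.8% on average sat on a 398-nt transcript annotated as processed and noncoding. Ccl4 (MIP-1 beta) was at 63.3, 46.7 and 76.3 TPM. Both were below Ccl3 in every library. Cxcl2, which attracts neutrophils, was at 65.1, 13.7 and 88.2 TPM. Ccl2, which attracts monocytes, was at 18.4, 1.94 and 12.8 TPM. These had among the widest spreads of all listed genes, with the highest library 6.42 and 9.50 times the lowest, and in both replicate 2 was over 2 times below the others. Ccl5 went the other way at 38.5, 60.3 and 31.03 TPM, with replicate 2 the highest. Cxcl1, Cxcl12, Cxcl13, Ccl8, Ccl11, Ccl12 and Ccl19 were listed at 0 in each library, although 58.8% of the 31-base words of Ccl19 are also in the gene Gm2564.

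Of 25 interleukin genes 9 (36%, against 48.6% of all protein-coding genes) were expressed. Il16, a ligand of CD4, was at 50.9, 23.6 and 47.3 TPM. Il18, which is cut and released through the inflammasome, was at 35.5, 20.7 and 34.4 TPM. Ebi3, a subunit of IL-27 and IL-35, was at 25.6, 14.7 and 49.1 TPM. Each of these 3 was lowest in replicate 2. Il1b, the inflammatory interleukin that the study followed, was at 3.02, 2.12 and 2.40 TPM (2.52 ± 0.462 TPM). Il1rn, its natural antagonist, was at 10.3, 1.84 and 9.86 TPM, above Il1b in replicates 1 and 3 and slightly below it in replicate 2. Il6 had 2, 3 and 2 estimated counts and Il10 had 7, 1 and 0, and Il12a and Il12b were listed at 0 in each library. Il4 was listed at 5.77, 3.21 and 6.04 TPM, but 98.1% of this on average sat on 1 noncoding transcript.

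Of 11 genes of the TNF family 4 (36.4%, against 48.6% of all protein-coding genes) were expressed. Ltb, lymphotoxin beta, was at 80.6, 36.7 and 108 TPM. Tnf, the main inflammatory cytokine of macrophages, was at 30.1, 35.9 and 35.7 TPM (33.9 ± 3.30 TPM). Their ranges did not overlap, though replicate 2 of Ltb came close to Tnf. None of 4 interferon genes was expressed. Ifnb1, the type I interferon that macrophages make first, had 5, 1 and 2 counts, and Ifng, Ifna4 and Ifnl2 were listed at 0.

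**Figure D4:**
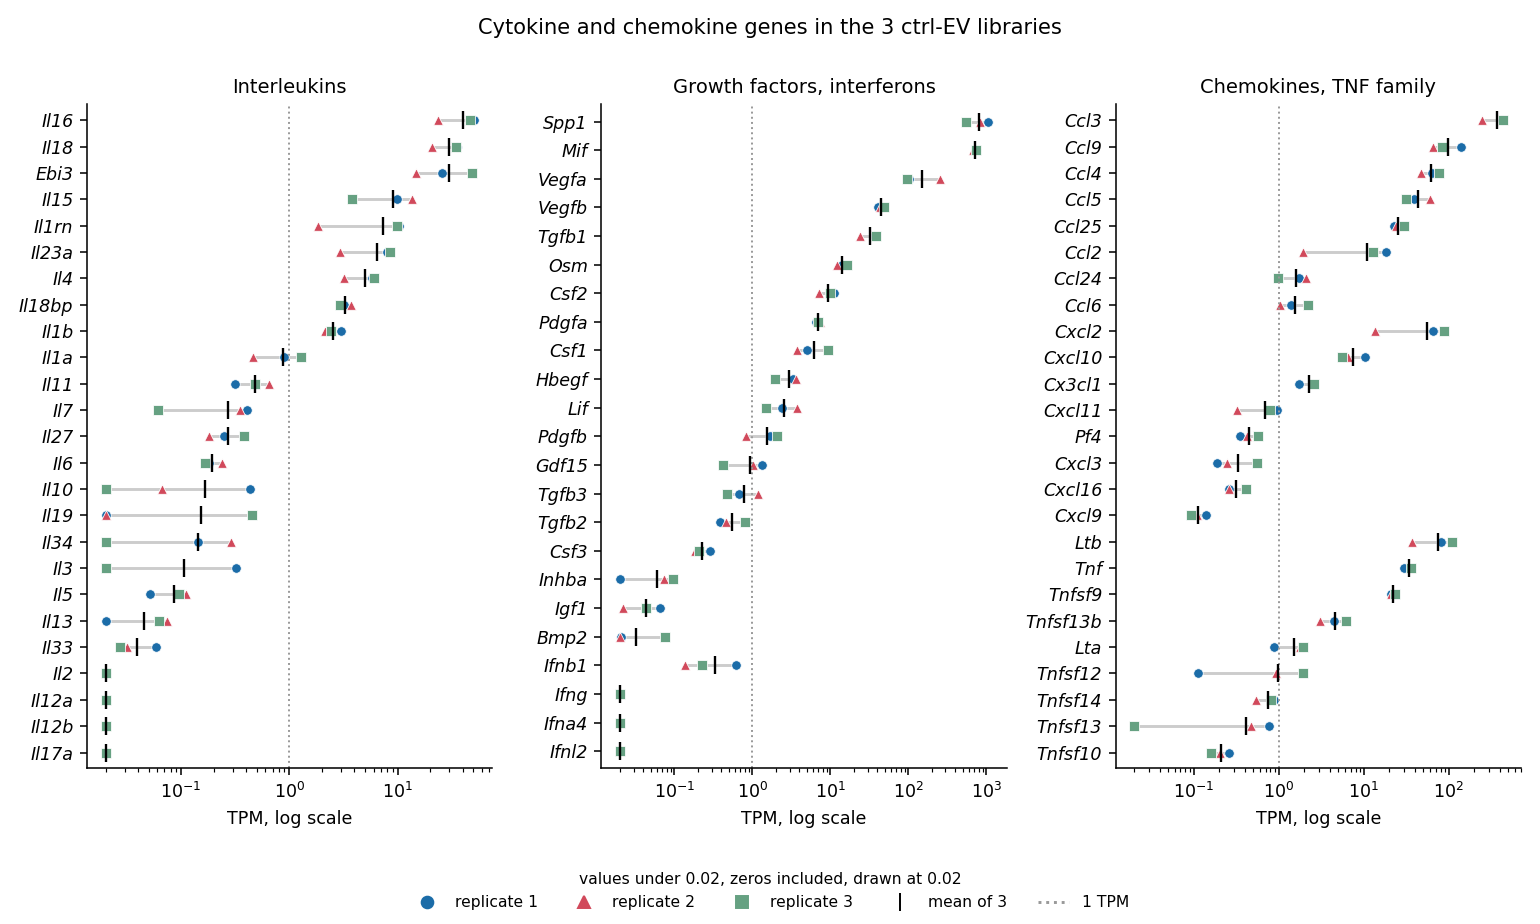
TPM on a log scale for interleukins, growth factors, interferons, chemokines and the TNF family in the 3 ctrl-EV libraries, with replicates as symbols, their mean as a bar and the range as a line. Values under 0.02 are drawn at 0.02. Spp1, Mif and Ccl3 are the genes above 200 TPM in every library, Vegfa is shifted to the right in replicate 2 only, and Ccl2, Cxcl2 and Il1rn are shifted to the left in it.

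The polarization list holds genes that mark macrophages after interferon gamma and lipopolysaccharide (classical or M1 activation) or after IL-4 (alternative or M2 activation). In these libraries 8 of 12 classical genes were expressed and 1 of 12 alternative ones, against 48.6% of all protein-coding genes. Cd86, a costimulator of T cells, was at 55.3, 22.5 and 66.2 TPM. Cd80, its relative, was at 42.0, 29.6 and 36.7 TPM. Ptgs2, the inducible cyclooxygenase, was at 47.1, 18.98 and 34.8 TPM. Replicate 2 was the lowest for all 3, and over 2 times below both others for Cd86 but not for Cd80 or Ptgs2. Nos2, the inducible nitric oxide synthase that the study followed, was at 2.75, 0.706 and 0.490 TPM, so 1 of 3 libraries passed 1 TPM. Arg1, the arginase that competes with it and marks alternative activation, had 6, 6 and 0 estimated counts. Retnla, Chil3, Chil4 and Mgl2, which IL-4 raises in mouse macrophages, were listed at 0 in each library. Mgl2 shares 19.3% of its 31-base words with Clec10a, which was at 3.01, 3.30 and 2.26 TPM, so its value is uncertain. Chil3 shares 28.9% of its 31-base words with Chil4. The alternative gene that was expressed was the coactivator Ppargc1b, at 4.25, 4.34 and 3.55 TPM.

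Of 14 genes of antigen presentation 10 (71.4%, against 48.6% of all protein-coding genes) were expressed. B2m, the invariant chain of class I molecules, was at 1155, 1668 and 1374 TPM (1399 ± 257 TPM). The class I heavy chain H2-D1 was at 336, 602 and 417 TPM. The heavy chain H2-K1 was at 261, 428 and 325 TPM. All 3 were highest in replicate 2. The heavy chains share 11.1% of the 31-base words of H2-K1, so the split between them is uncertain, and 79.9% of the H2-K1 level sat on a transcript with a retained intron. Cd74, the chaperone of class II molecules, was at 605, 754 and 667 TPM. Of the class II chains it serves, H2-Eb1 was at 12.1, 26.0 and 15.1 TPM. On average 49.0% of the H2-Eb1 level sat on a transcript annotated as a target of nonsense-mediated decay. H2-Aa was at 1.63, 10.98 and 5.58 TPM and H2-Ab1 at 0.844, 0.965 and 1.52 TPM, and all 3 chains were below Cd74 in each library. Ciita, the switch of class II genes, had 11.001, 14.3 and 6 counts.

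Of 15 inflammasome genes 12 (80%, against 48.6% of all protein-coding genes) were expressed. Aim2, a sensor of DNA in the cytosol, was at 435, 580.2 and 352 TPM (456 ± 115 TPM). Nlrp3, the sensor of many danger signals, was at 9.37, 5.18 and 10.2 TPM, far below Aim2. Casp4, which is turned on by lipopolysaccharide inside the cell, was at 116, 39.9 and 165 TPM. Gsdmd, whose fragment opens pores in the membrane, was at 68.0, 39.4 and 69.4 TPM. Aim2 was highest in replicate 2 while Nlrp3, Casp4 and Gsdmd were lowest in it. RAW264.7 cells are known to lack ASC, the adaptor that links the sensors to Casp1. Its gene, Pycard, was not expressed, at 9.44, 22.0 and 4.68 estimated counts. Of 7 genes of the osteoclast programme 2 (28.6%, against 48.6%) were expressed. Car2, carbonic anhydrase 2, was at 1802, 835 and 998 TPM (1212 ± 518 TPM), with replicate 1 the highest. Nfatc1, the master factor of osteoclasts, was at 24.6, 24.5 and 27.0 TPM and was steady. The calcitonin receptor Calcr had 1 count in 1 library.

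Markers of other cell types were checked with 97 genes, of which 11 (11.3%, against 48.6% of all protein-coding genes) were expressed and 37 (38.1%, against 31.3%) were at the floor. Their summed level was 93.2 to 121 TPM per library, against 3058 to 4543 TPM for macrophage identity. Endothelial genes are given first because the vesicles came from an endothelial line. Of 20 endothelial genes 5 (25%) were expressed, and the 20 held 46.2, 24.8 and 52.8 TPM in sum. The markers chosen to lead this list were Cdh5, Kdr, Tek, Tie1, Pecam1 (CD31) and Vwf. Pecam1 and Vwf were expressed and the others were not. Cdh5 (VE-cadherin) had 22, 3 and 9 counts. Kdr (VEGF receptor 2) had 0, 2 and 2. Tek, the angiopoietin receptor, had 7, 0 and 21. Of Cdh5, Kdr and Tek, Cdh5 alone reached 1 TPM, in replicate 1, and Cldn5, Emcn and Sox17 were listed at 0. Egfl7 was at 18.6, 12.0 and 24.1 TPM and Icam2, also known from white blood cells, was at 16.1, 4.60 and 17.8 TPM. The remaining expressed ones, Eng, Pecam1 and Vwf, stayed between 1.03 and 4.03 TPM, and 80.2% of the Pecam1 level sat on a transcript with a retained intron. No library without vesicles was used here, so RNA carried by the vesicles and RNA of the cells cannot be told apart.

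Markers of lymphocytes, granulocytes and tissue cells were low as well. Lck, the kinase of the T cell receptor, was at 18.3, 11.5 and 21.3 TPM, and on average 65.97% of it sat on a 568-nt transcript with a retained intron. Lat, an adaptor of that receptor, was at 2.49 to 3.77 TPM. Cd3e, a chain of it, had 0, 4 and 0 counts and Tcf7 was listed at 0. None of 12 B cell and 7 NK cell genes was expressed, against 48.6% of all protein-coding genes. Ncr1, Gzma and Gzmb were listed at 0. Prtn3, a protease of granulocyte precursors, was at 6.91, 10.8 and 6.396 TPM, whereas Mpo and Elane, of the same granules, had at most 6.35 counts. On average 74.2% of the Prtn3 level sat on a 786-nt transcript with a retained intron. Zbtb46, known from classical dendritic cells, was at 4.94, 5.16 and 5.49 TPM. Itga2b, the platelet integrin, was at 3.28, 10.7 and 5.29 TPM. Tagln, of smooth muscle, was at 6.03, 4.82 and 8.58 TPM. Prtn3 and these 3 were each the one expressed gene of their group, and Col3a1, Krt5, Krt14 and Krt18 were listed at 0.

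Over all lists 103 genes were at the floor. For 16 of them over 10% of their 31-base words are also in 1 other listed gene, and for 4 over 50%, so those low values are uncertain. The remainder, among them Cebpa, C1qa, C1qb, Il12b and Retnla, share less than that. Exosc6, a subunit of the RNA exosome that cells need, was listed at 0 while all of its 31-base words are also in transcripts of Aars, which was at 171, 113 and 174 TPM. Of 2 gene IDs named Atp5o, a subunit of ATP synthase, 1 was also listed at 0, and it holds 10.7% of the 31-base words of the other, which was expressed. Genes are therefore described as listed at 0, which is not the same as silent.

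The spread between the libraries was wider than counting error. Of 8236 protein-coding genes with a mean of at least 10 TPM, 1097 (13.3%) had a highest library over 2 times the lowest. The median coefficient of variation was 17.9% for genes of 10 to 100 TPM, where counting alone would give 3.27%, and 8.82% for genes of 1000 TPM or more. Replicate 2 stood apart. It was over 2 times above both others in 136 genes (1.65%) and over 2 times below both in 380 (4.61%), while replicate 1 was so in 5 and 1 genes and replicate 3 in 6 and 51. Without replicate 2 the highest library was over 2 times the lowest in 68 protein-coding genes, without replicate 3 in 651 and without replicate 1 in 910. Across genes, log2 levels of replicates 1 and 3 had a Pearson correlation of 0.978, against 0.931 for replicates 1 and 2 and 0.908 for replicates 2 and 3. Genes are not independent replicates, and these values describe the libraries only.

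By list, the highest library was over 2 times the lowest in 18 of 44 receptor genes (40.9%) with a mean of at least 10 TPM, in 10 of 29 genes of macrophage identity (34.5%) and in 7 of 19 cytokine genes (36.8%), but in 12 of 92 lysosome genes (13.0%), against 13.3% of all protein-coding genes at that level. Without replicate 2 the counts were 2 receptors and 0 genes each of macrophage identity, cytokines and the lysosome, and without replicate 3 they were 12, 5, 6 and 5, in the same order. Replicate 2 lay over 2 times below both others in 9 of the 44 receptors (20.5%) and 4 of the 92 lysosome genes (4.35%), against 4.61%, and it was the lowest library in 35 of the receptors (79.5%), against 53.2%. Replicate 2 also had the lowest depth, and transcripts annotated with a retained intron held 5.69%, 7.57% and 5.48% of TPM in replicates 1, 2 and 3. The part of these measures in the spread was not tested.

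The widest spreads outside the lists were taken from protein-coding genes with a mean of at least 10 TPM and 50 estimated counts, a minimum of counts that was added after the values were seen. In each gene named here replicate 2 was the highest or the lowest library. It was the highest for Car14, a carbonic anhydrase, at 4.07, 35.3 and 1.71 TPM, and for Adm, the vessel-dilating peptide adrenomedullin, at 29.4, 115 and 6.24 TPM, with the highest library 20.7 and 18.4 times the lowest. Adm also differed between replicates 1 and 3, whereas both were close for Eno2, a glycolytic enolase, at 101, 489 and 68.1 TPM. Replicate 2 was also the highest library for Chrnb1, a subunit of the acetylcholine receptor of muscle, at 7.51, 57.6 and 4.59 TPM, the ephrin Efna1 at 5.40, 34.0 and 4.76 TPM, Hif3a, of the hypoxia-inducible factor family, at 9.58, 34.6 and 5.73 TPM, and the hormone gene Stc1, stanniocalcin, at 20.5, 39.7 and 7.03 TPM.

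In the other direction, replicate 2 was far below both others for Csprs at 117, 11.6 and 127 TPM, for Gpr84, a receptor of fatty acids, at 13.1, 2.48 and 20.1 TPM, and for Clec5a, a lectin that signals through Tyrobp, at 54.0, 8.06 and 44.0 TPM. Oas2, an antiviral enzyme that interferon induces, was at 21.03, 5.03 and 35.2 TPM, and Rtp4 was at 40.3, 8.54 and 53.5 TPM. Bcl2a1b, a survival protein with near-identical copies, was at 94.9, 22.7 and 124 TPM. For these genes replicates 1 and 3 lay within 2 times of each other. Without the minimum of 50 counts, the widest ratios over all genes were mostly those of pseudogenes and of genes with a few counts, such as Ddit3, listed at 45.04, 0 and 0 TPM from 8.19, 0 and 0 counts.

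**Figure D5:**
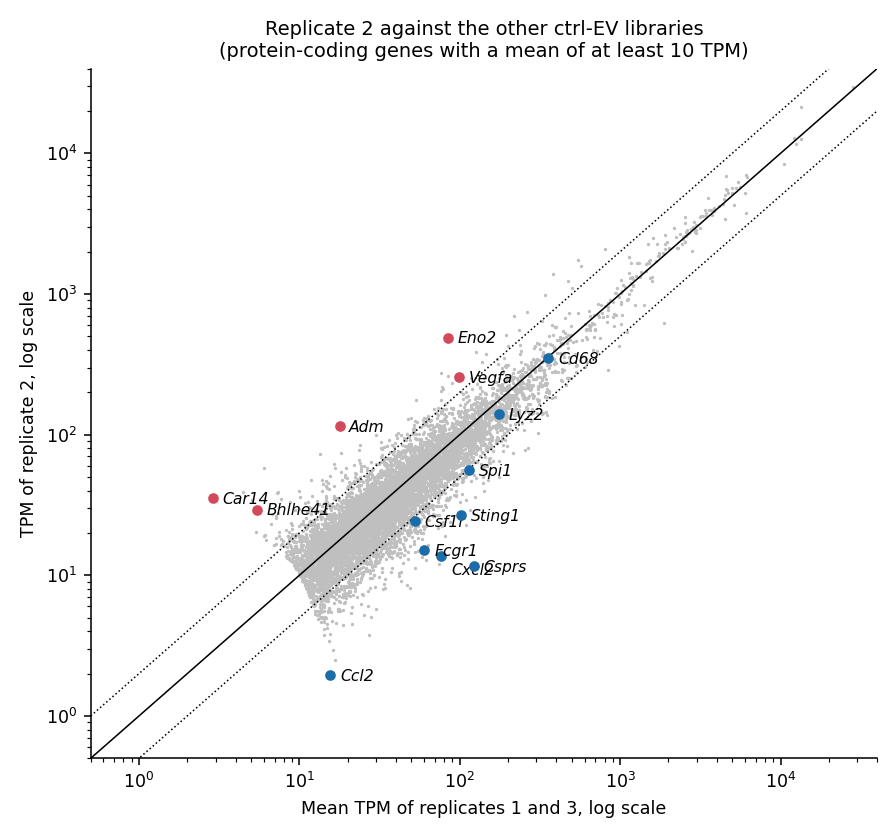
TPM of replicate 2 against the mean TPM of replicates 1 and 3, both on log scales, for the 8236 protein-coding genes with a mean of at least 10 TPM, as grey points, with the line of equality and dotted lines at 2 times above and below it. Vegfa, Adm, Eno2, Bhlhe41 and Car14 lie above the upper dotted line, Cd68 and Lyz2 lie near equality, and Csf1r, Sting1, Fcgr1, Cxcl2, Ccl2 and Csprs lie below the lower one.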

How the data were processed

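RNA-Seq of polyadenylated RNA (TruSeq Stranded mRNA, paired ends) from RAW264.7 cells was quantified by the authors with Salmon against Ensembl mouse transcripts. The deposited TPM and estimated counts per transcript were used as deposited. The labels name the build GRCh38, a human one, although the transcript identifiers are those of mouse, so the build was taken from the identifiers. TPM and estimated counts were summed to genes with the annotation GENCODE vM21 (GRCm38), which held 116710 of 118783 listed transcripts. Counts served for depth and the floor and were not rounded.

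The 3 ctrl-EV libraries form 1 group, so no contrast and no test were made, and values are descriptive (mean ± SD, n = 3). A level at the floor covers counting error only. Neighbours in an order were separated where their ranges over the 3 libraries did not overlap.

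Of 537 listed genes 536 were found, and Ear11 was not. The libraries, lists and rules were chosen with earlier results of these data known. Genes named are the 4 markers, the 20 most abundant genes, the leading members of each list and those at the floor, the widest spreads, and Arg1, Tgfb1, Nos2 and Il1b, which the study followed. Some genes that this rule names are not reported here. Other list members were named for their role after their values were seen. Sequence words of 31 bases were compared between transcripts to find genes that share reads. Upstream windows came from RefSeq tables of GRCm38.p6.

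Python 3.11.15, pandas 2.3.3, numpy 2.4.6, matplotlib 3.10.9 and biopython 1.88 were used, and the scripts were tested on simulated data. Alternatives covered the threshold, scaling, length correction, filters, pseudocount and each replicate left out.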

Additional observations from a re-analysis of the deposited data

Results flagged for a closer look

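Transcripts that the annotation did not hold were outside all gene levels given above. There were 2073 of them, and on average they held 0.511% of TPM in the 3 libraries. Of these, ENSMUST00000216743.1 had a mean of 285 TPM, with 299, 276 and 281 TPM in replicates 1, 2 and 3, and ENSMUST00000231086.1 had a mean of 239.5 TPM, with 257, 203 and 259 TPM. Both were above the level of 3 counts, which was at most 1.63 and 0.0980 TPM for them. The genes of the unmatched transcripts were not looked up, and they may include genes given above at or near 0. They were counted in no list.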

How the results depend on the processing

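The number of expressed genes stayed within 1.5 times in each list under the other settings, except that 18 genes of other cell types in place of 11 passed a threshold of 0.5 TPM. When TPM was rescaled so that nuclear protein-coding genes sum to 1000000, summed levels became 4875 TPM for macrophage identity (3864 TPM as reported), 4068 for receptors (3226), 19253 for the lysosome (15247), 3491 for cytokines and chemokines (2763), 6627 for polarization (5242), 136.5 for other cell types (108) and 1741 for line history (1378). With only the most abundant transcript of each gene, the sums were 12025 TPM for the lysosome, 2394 for cytokines and chemokines, 4344 for polarization, 67.8 for other cell types and 955 for line history. The share held by the 10 and the 100 most abundant genes was 11.8% and 40.5% on average. It was 7.9997% and 35.1% among nuclear protein-coding genes, 14.8% and 47.2% with the most abundant transcripts, and 6.96% and 21.2% from counts with no length correction. It was 9.43% and 36.3% without genes of an effective length under 200 nt, an alternative chosen after seeing the data. Protein-coding genes with a highest library over 2 times the lowest numbered 1097, and 2282 with a mean of at least 1 TPM or 7381 with no filter. With 1 replicate left out, they ranged from 68 to 910, macrophage identity genes from 0 to 8, receptors from 2 to 15, lysosome genes from 0 to 11 and cytokines from 0 to 6, and in each of these the lowest count was the one without replicate 2. Those by list were chosen after seeing the data. The median SD of log2(TPM + 1) was 0.25, ranged from 0.11 without replicate 2 to 0.27 without replicate 1, and was 0.14 with no filter. Of 653 genes, the mean TPM moved by over 1 SD for 244 under the rescaling, 177 with the most abundant transcript and 368 without length correction. The rescaling is a change of unit that raises all levels of a library by the same factor. Nuclear protein-coding genes held 78.9%, 78.1% and 80.4% of TPM in replicates 1, 2 and 3. The cause of the other differences was not tested. Depth limits statements on genes under about 3 counts. No paired analysis was possible because a single group was described and no test was made.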

Other observations

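Genes tied to the history of the line were read from a list of 27, of which 21 (77.8%, against 48.6% of all protein-coding genes) were expressed. The other 6 (22.2%, against 31.3%) were at the floor. The line came from a male mouse, and of 7 Y-linked genes 4 (57.1%, against 48.6%) were expressed. Eif2s3y, a translation factor, was at 93.5, 84.6 and 74.9 TPM, and the helicase Ddx3y was at 26.6, 27.5 and 17.2 TPM. The histone demethylase Kdm5d was at 24.2, 20.1 and 19.5 TPM, and its fellow demethylase Uty was at 19.4, 20.2 and 11.3 TPM. Usp9y, Zfy1 and Sry were at the floor, with at most 1 count in any library, and 53.8% of the 31-base words of Zfy1 are also in Zfy2. Of genes of transformation and tumour suppression, Trp53 was at 141, 79.1 and 151 TPM and Cdkn1a, its target that halts the cycle, at 69.8, 132 and 74.7 TPM. Abl1, the cellular counterpart of the viral oncogene that gave rise to the line, was at 40.3, 44.6 and 32.9 TPM, a value that cannot be divided between cellular and viral transcripts here. Cdkn2a and Cdkn2b, inhibitors of the cell cycle that tumour lines often lose, were listed at 0 in each library, and Myc had 1, 0 and 1 counts. All 9 genes of proliferation were expressed, among them Top2a at 226, 139.6 and 192 TPM, Cdk1 at 197, 148 and 174 TPM and Mki67 at 116, 68.0 and 76.6 TPM.

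Pseudogenes held 9.11%, 10.8% and 9.87% of TPM. Some of them are copies of abundant genes. Gm13394, a chromosome 2 copy of the glycolytic gene Gapdh, was listed at 4101, 4619 and 3021 TPM, with 21.3% of the 31-base words of Gapdh in it, while Gapdh itself was at 2153, 2630.3 and 1673 TPM. Among copies of mitochondrial genes on chromosome 1, Gm28661 was listed at a mean of 3516 TPM and Gm28438 at 1217 TPM. The SDs given above do not cover how reads were divided between a gene and its copies.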
